A study of Mus musculus with 6 samples.

Results

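The small leucine-rich proteoglycans examined here were Ogn, Dcn, Lum, Fmod, Bgn, Prelp, Omd, Aspn and Podn, taken by gene symbol from a table of 20170 genes measured in colon RNA. All 9 were found in the table. The list was drawn up with differences between the groups already known, so the fold changes of the members below are a description and carry no test. Colon tissue came from C57BL/6J mice of WT genotype in which tumours had been induced with azoxymethane (AOM), a mutagen injected into the abdomen at 10 mg/kg on the first day, and 2% dextran sulfate sodium (DSS), an irritant of the colon lining given in the drinking water in 3 separate rounds. The restrained group of 3 samples (treatment label AOM/DSS, chronic restraint stress) came from mice also confined daily, for 3 to 4 hours at a time, to a 50 mL tube with air holes. The unrestrained group of 3 samples had AOM/DSS alone, so both groups carry the AOM/DSS treatment and no group without it is part of the comparison. Replicates 1, 2 and 3 of each group are names in accession order. Age and the place along the colon are not given by the labels, and nothing in them says that each sample is a separate mouse, so the spread between samples may be technical in part.

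These proteoglycans are secreted proteins of the extracellular matrix, each built around a curved stack of leucine-rich repeats that binds collagen. They control how collagen molecules assemble into fibrils and how thick the fibrils become, and several also hold growth factors such as TGF-beta in the matrix or bind receptors on cells. In the gut wall they are made chiefly by fibroblasts and other cells of the connective tissue and muscle layers, and hardly by the epithelium. In bulk tissue fewer cells of such a type and less RNA per cell cannot be told apart.

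The samples held between 27160547 and 33017500 counts, and 15890 genes were kept for testing after a filter on low counts. Although the labels give the cell type as colorectal cancer cell, the samples also held RNA of smooth muscle and fibroblast markers. How much of the wall each sample took in is not known. The 9 epithelial markers summed to 9470 to 14151 CPM (counts scaled to library size), the 14 smooth muscle markers to 2930 to 9010 CPM and the 15 fibroblast markers to 1162 to 1804 CPM. Unrestrained replicate 1 stood apart on the first principal component (61.0% of variance, over the 500 genes that varied most), at 61.4 against -38.8 to 3.98 for the other samples. Unrestrained replicate 3 held 3125 CPM of squamous epithelial markers, against 11.5 to 83.0 CPM in the others.

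Most of these genes lie side by side on the chromosomes. In the RefSeq gene table of build GRCm38, Ecm2, Aspn, Omd and Ogn follow each other on chromosome 13 inside the span of Cenpp, a centromere gene. Optc, Prelp and Fmod follow each other on chromosome 1, and Dcn, Lum, Kera and Epyc on chromosome 10. Bgn lies on the X chromosome and Podn on chromosome 4. In the GENCODE M21 exons of the same build, Aspn shared 7 bases with Cenpp and Prelp 350 bases with Gm15851, both on the opposite strand, and no exon of another gene overlapped those of the other 7 members. Whether strand was used in the counting is unknown here, and for Prelp reads of the overlapping gene cannot be told apart.

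RefSeq promoter sequences (250 bases before to 50 after the start, build GRCm38.p6) were at hand for 7 of the 9 members. The sequences of Ogn and Aspn, the chromosome 13 neighbours that lay lower in restrained samples, are shown beside those of Podn and Bgn, the pair with fitted fold changes above 0. They are written 5′ to 3′ on the strand of the gene, and capitals mark matches to the motifs searched. Their places are chr13:49607765-49608064 (plus strand) for Ogn, chr13:49544193-49544492 (plus) for Aspn, chr4:108031905-108032204 (minus) for Podn and chrX:73483351-73483650 (plus) for Bgn.
Ogn: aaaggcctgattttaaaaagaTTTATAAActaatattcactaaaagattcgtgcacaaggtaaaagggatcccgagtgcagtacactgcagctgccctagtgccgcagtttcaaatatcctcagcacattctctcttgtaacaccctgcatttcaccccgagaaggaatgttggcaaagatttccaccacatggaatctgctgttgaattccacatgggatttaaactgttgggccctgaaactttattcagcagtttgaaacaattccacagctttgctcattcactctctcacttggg
Aspn: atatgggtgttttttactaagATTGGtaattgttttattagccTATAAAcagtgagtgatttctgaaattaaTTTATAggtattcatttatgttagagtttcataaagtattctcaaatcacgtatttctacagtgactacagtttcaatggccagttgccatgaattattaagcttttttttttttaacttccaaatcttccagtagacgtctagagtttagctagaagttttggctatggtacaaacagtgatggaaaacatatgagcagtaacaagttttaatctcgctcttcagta
Podn: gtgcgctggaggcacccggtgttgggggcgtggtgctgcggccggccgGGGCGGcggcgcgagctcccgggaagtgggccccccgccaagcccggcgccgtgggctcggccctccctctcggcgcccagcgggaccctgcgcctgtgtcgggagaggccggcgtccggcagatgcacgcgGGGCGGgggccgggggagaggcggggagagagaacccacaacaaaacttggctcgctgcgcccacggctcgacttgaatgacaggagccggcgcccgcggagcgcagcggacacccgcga
Bgn: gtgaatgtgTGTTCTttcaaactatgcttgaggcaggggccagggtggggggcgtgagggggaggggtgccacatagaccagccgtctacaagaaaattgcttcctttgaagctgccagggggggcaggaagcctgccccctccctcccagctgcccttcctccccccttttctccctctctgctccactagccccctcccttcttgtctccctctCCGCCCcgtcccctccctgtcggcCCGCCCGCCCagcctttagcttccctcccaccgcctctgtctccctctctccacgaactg
Each motif was searched on both strands. The end of the Ogn window was not found near the start of a GENCODE M21 transcript of Ogn, whereas those of Aspn, Podn and Bgn were. Places relative to the start are thus less sure for Ogn. The TATA box letters TATAAA, found in 13.6% of the 32851 promoters in the table, occurred in the Ogn and Aspn windows, but far upstream of the start: at -229 on the minus strand and -227 on the plus strand in Ogn, where these matches overlap, and at -207 (plus) and -178 (minus) in Aspn. The letters CCAAT (37.4% of promoters) occurred in the Aspn window. The GC box letters GGGCGG (35.7%) occurred at 2 places in the Podn window and 3 in that of Bgn, where the matches at -10 and -6 overlap. The letters TGTTCT (19.0%), the short core of a glucocorticoid receptor site, occurred in that of Bgn at -241. The full palindromic glucocorticoid response element (0.00913%), the AP-1 letters TGANTCA (7.81%) and the CArG box bound by serum response factor (1.63%) had no match in these 4 windows. The windows differed widely in base composition. G and C made up 42.3% of the Ogn window and 31.0% of that of Aspn, against 77.0% in Podn and 63.7% in Bgn, with a median of 52.7% over all promoters. These windows were picked by the direction of the fold change. Prelp and Fmod, with log2 fold changes also below 0, had 55.3% and 51.0%, and the untested Omd had 37.7%. A link between base composition and fold change was not tested. The Podn window held 41 CpG dinucleotides, against 4 in Ogn, 3 in Aspn and 9 in Bgn. The table also holds a second Podn promoter, not printed here, with 63.0% G and C and 7 CpG dinucleotides; the window shown is the one at the start of the gene.

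Dcn and Bgn made up most of the family's transcripts, Ogn, Lum, Prelp, Aspn and Podn formed a middle tier, and Fmod and Omd were close to absent. Levels are compared per length, in the deposited FPKM (fragments scaled to transcript length and depth). Over all 6 samples the mean was 89.6 FPKM for Dcn, which encodes decorin, a regulator of fibril width that binds TGF-beta and several growth factor receptors. It was 47.5 FPKM for Bgn (biglycan, which also activates Toll-like receptors 2 and 4 of innate immune cells), 19.6 for Ogn, 13.5 for Lum, 12.8 for Prelp, 9.63 for Aspn and 5.12 for Podn. Fmod averaged 0.507 FPKM and Omd 0.102 FPKM. Dcn held the first place in every sample and stood at percentile 94.2 of the mean FPKM of the genes tested, against percentile 40.8 for Podn and 10.4 for Fmod.

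Neighbours in that order were compared within samples. Since the order comes from the same 6 values, the direction of each pair was fixed by it. The p-values set each mean log2 ratio against its spread over the 6 samples, with both groups pooled, and are no independent test of the order. Dcn exceeded Bgn, Ogn exceeded Lum, Podn exceeded Fmod and Fmod exceeded Omd in 6 of 6 samples (two-sided exact permutation test of the paired log2 FPKM, p = 0.0313 each, the smallest that 6 samples allow, and p = 0.0625 adjusted over the 8 neighbouring pairs). Bgn exceeded Ogn in 5 of 6 samples, Prelp exceeded Aspn in 5 and Aspn exceeded Podn in 5. Lum and Prelp, whose mean log2 ratio was 0.033, did not differ beyond their spread (4 of 6 samples, exact permutation p = 0.75). Across samples Prelp kept place 5, while Aspn took places 4 to 7 and Podn places 3 to 7. No pair passed an adjusted p of 0.05.

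**Figure D1:**
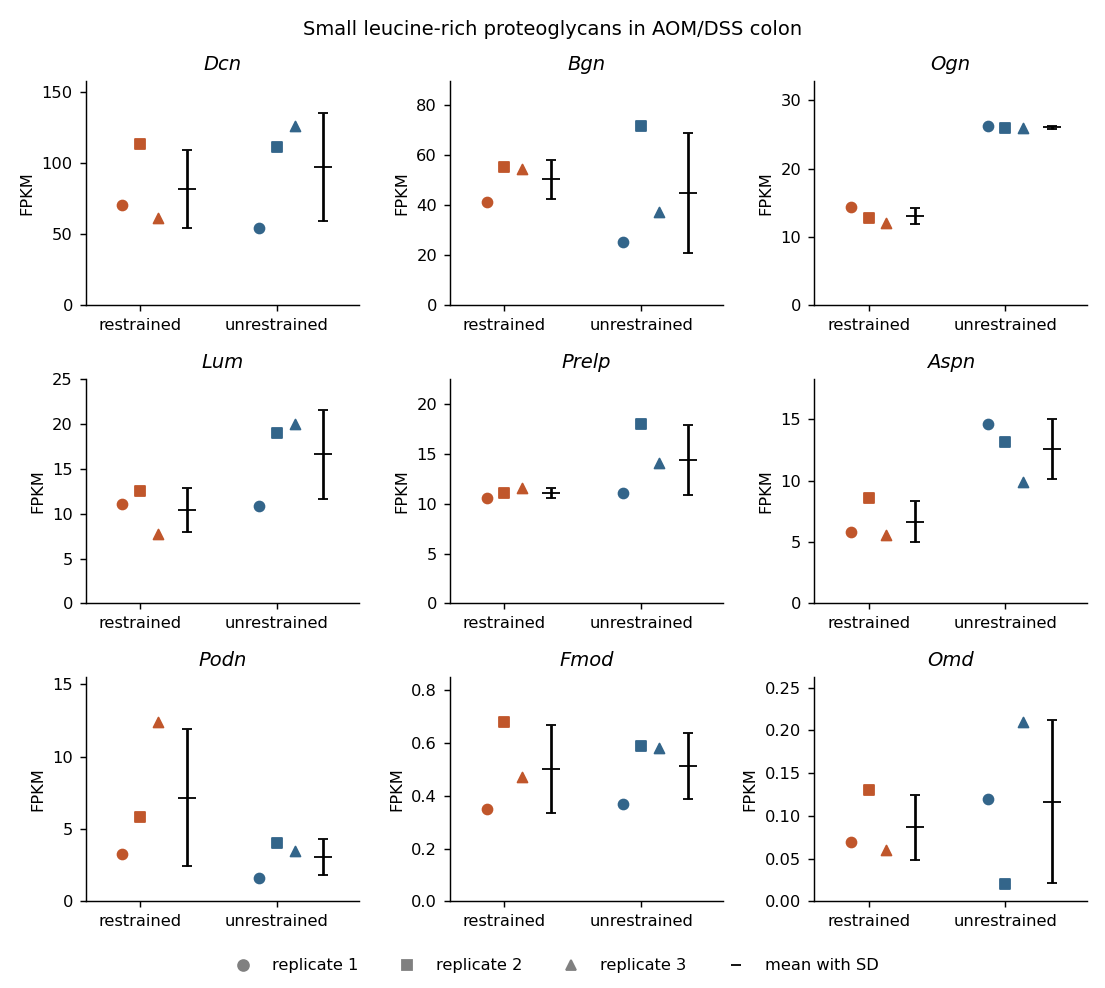
Deposited FPKM of the 9 small leucine-rich proteoglycans in each sample (vertical axes start at 0 and differ between panels); circles, squares and triangles are replicates 1, 2 and 3, and the bar beside each group is its mean with SD (n = 3). The restrained samples of Ogn (12.1 to 14.4 FPKM) and Aspn (5.60 to 8.61 FPKM) lie below all unrestrained samples, while the groups overlap for Dcn, Bgn, Lum, Fmod, Prelp, Omd and Podn.

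Across the groups the members did not behave as a block. Of the 8 members that passed the filter on low counts, 6 had a fitted log2 fold change (restrained minus unrestrained) below 0 and 2 above 0, where 51.6% and 48.4% of all genes tested did, and the median was -0.35 against -0.0146 over all genes. The groups did not overlap for 3 members, which were Ogn, Aspn and Prelp, all lower; 11.2% of all genes tested lay lower without overlap and 12.5% higher. In edgeR's quasi-likelihood fit 0 of the 15890 genes reached an adjusted p under 0.05 (0% called), so no member did. The unadjusted p was under 0.05 for 1401 genes that were lower (8.82%) and 1243 that were higher (7.82%), among them 4 members, all lower. DESeq2 called 453 genes lower (2.77% of 16364 with an adjusted p) and 345 higher (2.11%), and Ogn and Aspn were among those lower. Since the members were chosen with this contrast known, these counts support nothing further.

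Ogn, also called osteoglycin or mimecan, regulates collagen fibril assembly and belongs to the third structural class of the family. It was measured at 14.4, 12.8 and 12.1 FPKM in restrained replicates 1, 2 and 3, against 26.3, 25.95 and 25.9 FPKM in unrestrained replicates 1, 2 and 3. The groups lay far apart and each was tight. The means were 13.1 ± 1.20 FPKM in restrained and 26.04 ± 0.192 FPKM in unrestrained samples (SD, n = 3 each). The fitted log2 fold change of the counts was -1.04 ± 0.12 (SE), and leaving out each sample in turn gave -1.12 to -0.96. The SD of log2 CPM within groups was 0.13 for Ogn, percentile 20 among the genes tested, so it was less variable within the groups than any other tested member.

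Aspn, which encodes asporin, a relative of decorin with a stretch of aspartate residues that binds collagen and TGF-beta, was lower in the restrained samples too. It was measured at 5.81, 8.61 and 5.60 FPKM in restrained replicates 1, 2 and 3 and at 14.6, 13.2 and 9.91 FPKM in unrestrained replicates 1, 2 and 3. The groups did not overlap, with unrestrained replicate 3 nearest to the restrained samples. The log2 fold change was -0.96 ± 0.24, and -1.20 to -0.80 with a sample left out. Ecm2, a matrix protein related to decorin that precedes Aspn on the chromosome, had 46, 51 and 53 counts in restrained samples, against 63, 101 and 138 in unrestrained samples. Its log2 fold change was -1.10 ± 0.33 (edgeR adjusted p = 0.239).

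Omd, osteomodulin, which binds the mineral of bone and lies between Aspn and Ogn, did not pass the filter. It had 4, 7 and 3 counts in restrained replicates and 6, 1 and 12 in unrestrained replicates. Summed over the group that was 14 counts (0.149 CPM, exact 95% Poisson interval 0.0816 to 0.250) in restrained and 19 counts (0.213 CPM, 0.128 to 0.333) in unrestrained samples. A difference was not detectable at this depth, and the intervals cover counting error only. Cenpp, whose span holds all 4 of these genes, had a log2 fold change of 0.20 ± 0.29, with groups that overlapped.

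On chromosome 1 the neighbours differed in size of fold change. Prelp, which links basement membranes to collagen through heparan sulfate, was at 10.6, 11.1 and 11.6 FPKM in restrained samples and at 11.1, 18.05 and 14.1 FPKM in unrestrained samples. In FPKM restrained replicates 2 and 3 reached unrestrained replicate 1, whereas in scaled CPM the groups just failed to overlap (38.2 to 40.02 CPM in restrained and 42.8 to 63.7 CPM in unrestrained samples). The log2 fold change of Prelp was -0.42 ± 0.15, and -0.26 without unrestrained replicate 2. Fmod, fibromodulin, which guides collagen cross-linking in tendon, had 33, 61 and 40 counts in restrained and 31, 46 and 55 in unrestrained samples. Its groups overlapped, its log2 fold change was -0.080 ± 0.40, and the sign turned without restrained replicate 1 (0.12), unrestrained replicate 2 (0.0021) or unrestrained replicate 3 (0.0103).

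Optc, opticin, is known from the vitreous of the eye, and its RNA was present in every colon sample. It was at 3.16, 3.44 and 2.29 FPKM in restrained replicates 1, 2 and 3, against 5.76, 5.15 and 5.81 FPKM in unrestrained replicates 1, 2 and 3, with no overlap. The log2 fold change was -0.95 ± 0.24 (edgeR adjusted p = 0.195). DESeq2 called it (adjusted p = 0.00807).

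**Figure D2:**
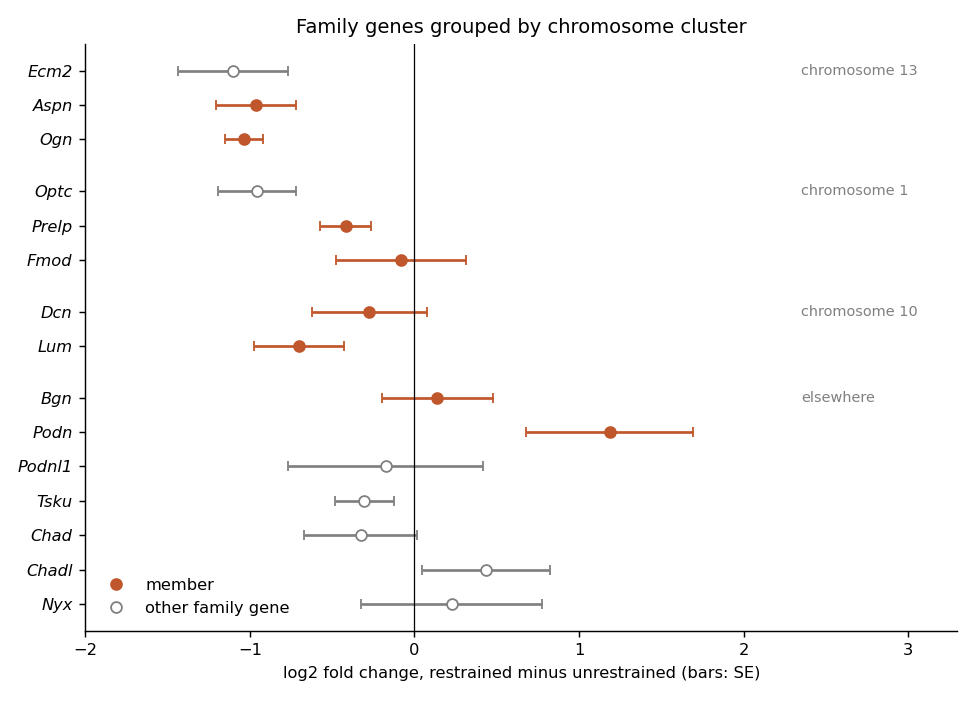
Log2 fold change of the counts (restrained minus unrestrained, horizontal axis) of the family's 15 tested genes, with bars for the SE of the edgeR fit, grouped by their place on the chromosomes; filled points are the members and open points other genes of the family. Ecm2, Aspn and Ogn on chromosome 13 and Optc on chromosome 1 lie between -1.10 and -0.95, and Podn lies at 1.19.

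On chromosome 10 Dcn varied more within the groups than between them, and Lum, its neighbour, lay lower on average in restrained samples with groups that overlapped. Dcn was at 70.9, 113 and 61.5 FPKM in restrained replicates 1, 2 and 3 and at 54.1, 111 and 126 FPKM in unrestrained replicates 1, 2 and 3. The lowest value of all belonged to unrestrained replicate 1 and the groups overlapped throughout. The log2 fold change was -0.27 ± 0.35, from -0.59 without restrained replicate 2 to -0.044 without unrestrained replicate 3. Lum, lumican, a keratan sulfate proteoglycan that spaces collagen fibrils in the cornea, was at 11.1, 12.5 and 7.69 FPKM in restrained replicates and 10.9, 18.95 and 20.0 FPKM in unrestrained replicates. Unrestrained replicate 1 lay among the restrained samples, and the log2 fold change was -0.70 ± 0.27, against an SD of log2 CPM within groups of 0.41 for Lum and 0.55 for Dcn. Relative to Dcn in the same sample, Lum stood at 0.156, 0.110 and 0.125 FPKM per FPKM of Dcn in restrained replicates and at 0.201, 0.170 and 0.158 in unrestrained replicates, where restrained replicate 1 and unrestrained replicate 3 all but met. Of the 6 members set against Dcn in this way, Ogn also lay lower and Podn higher without overlap, and Aspn, Bgn and Prelp overlapped. For Ogn too, restrained replicate 1 (0.2035) and unrestrained replicate 3 (0.2052) all but met. The share of all genes without overlap on this ratio is not given here.

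Bgn and Podn were the members with fitted log2 fold changes above 0. Bgn was at 41.2, 55.4 and 54.3 FPKM in restrained replicates and at 25.5, 71.6 and 37.2 FPKM in unrestrained replicates. Unrestrained replicates 1 and 2 held the lowest and the highest value, and the log2 fold change of 0.14 ± 0.34 turned to -0.12 without unrestrained replicate 1 and became 0.62 without unrestrained replicate 2. Y-linked Ddx3y was expressed at 56.8 to 89.6 CPM in every sample and X-linked Xist had at most 16 counts in any, so the X-linked Bgn was not compared across sexes.

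Podn, podocan, binds type I collagen and is known to restrain the growth of smooth muscle cells. It was at 3.28, 5.85 and 12.4 FPKM in restrained replicates 1, 2 and 3, against 1.64, 4.05 and 3.46 FPKM in unrestrained replicates 1, 2 and 3. Restrained replicate 3 stood well above the others, and restrained replicate 1 lay within the unrestrained range. The log2 fold change of 1.19 ± 0.51 was 0.58 without restrained replicate 3 and 1.54 without restrained replicate 1. Podnl1, its closest relative in the family, did not share this difference in the fit (-0.17 ± 0.59, edgeR adjusted p = 0.900). In every restrained sample the FPKM of Podn per FPKM of Podnl1 (6.26 ± 0.654) exceeded that in every unrestrained sample (2.83 ± 0.893; SD, n = 3 each).

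The make-up of the family's transcript pool differed with these values while its total did not separate the groups. The 9 members summed to 158, 220 and 166 FPKM in restrained replicates and to 145, 264 and 238 FPKM in unrestrained replicates. Dcn held 44.5% ± 7.14 of that sum in restrained and 44.2% ± 8.05 in unrestrained samples. Ogn held 9.15%, 5.82% and 7.29% in restrained replicates, against 18.2%, 9.84% and 10.9% in unrestrained replicates, with no overlap. Podn held 2.08%, 2.65% and 7.49%, against 1.13%, 1.54% and 1.46%. The shares of Bgn (28.01% ± 4.14 in restrained, 20.1% ± 6.16 in unrestrained samples) and Prelp (6.24% ± 1.05 and 6.82% ± 0.875) overlapped. Shares of 1 sum are not independent of each other.

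**Figure D3:**
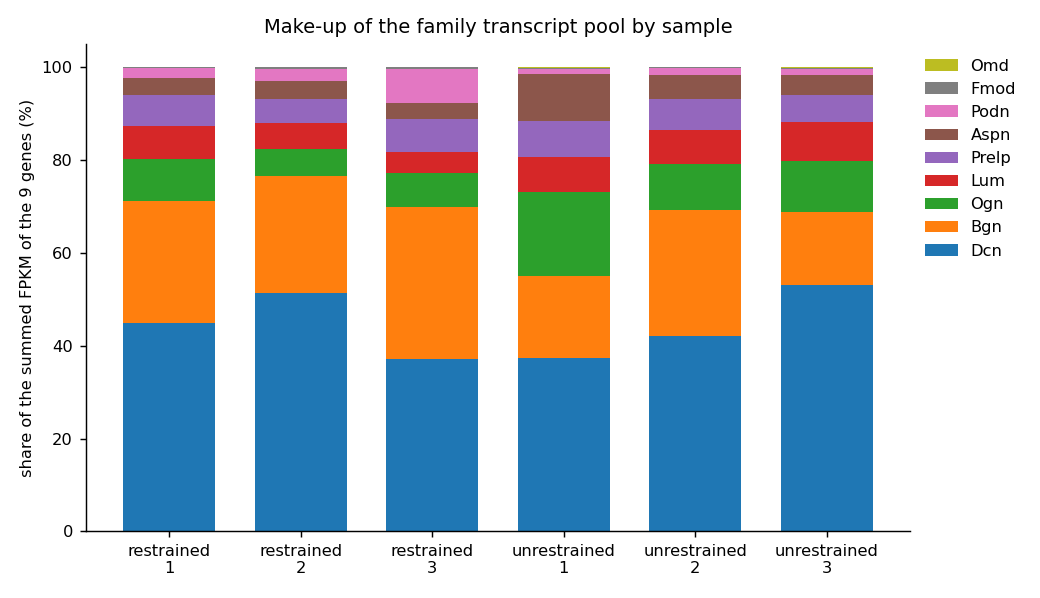
Share of each member in the summed FPKM of the 9 genes (percent, vertical axis from 0), 1 stacked bar per sample. Dcn is the widest segment in every bar, the Ogn segment is narrower in the 3 restrained samples (5.82% to 9.15%) than in the unrestrained samples (9.84% to 18.2%), and the Podn segment is widest in restrained replicate 3.

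Of the other genes of the family Tsku and Optc were nearest to Podn in FPKM, and the other 7 were lower. Besides Ecm2 and Optc, Tsku, a secreted protein that modulates BMP and Wnt signals, was at 5.36, 3.78 and 5.32 FPKM in restrained samples and at 5.65, 5.93 and 5.67 FPKM in unrestrained samples (log2 fold change -0.30 ± 0.18, edgeR adjusted p = 0.408). Of the 9 other family genes 7 were tested, 2 with a log2 fold change above 0 and 5 below, with a median of -0.30 (-0.16 without restrained replicate 2). In edgeR 0 passed (2 at an unadjusted p under 0.05), and DESeq2 called Optc. Chad, chondroadherin of cartilage, had -0.33 ± 0.34, Chadl 0.43 ± 0.39 and Nyx 0.23 ± 0.55. Kera and Epyc were not tested.

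Each tested member was set beside the genes whose log2 CPM, centred over the 6 samples, differed least from its own (root mean square difference over 6 samples, among 11244 genes outside the family list with at least 5 CPM). The nearest genes to Ogn were Mustn1, a protein of the musculoskeletal system, at a difference of 0.058, then Wfdc1 and Cd59a at 0.10 each, where the median over all candidates was 0.57. Those of Aspn were Map1a, Mmp17 and Itga5 (0.10, 0.10 and 0.11), and among the members Ogn and Aspn stood 0.28 apart. Those of Lum were Vegfc, a growth factor of lymphatic vessels (0.042), Dpt, a decorin-binding matrix protein (0.064), and Sp100 (0.13). Those of Dcn were farther off, with Postn, Fbln2 and Irgm1 at 0.19, 0.19 and 0.20.

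For Bgn the nearest genes were Col1a2, a chain of type I collagen (0.085), Cd93 and Mrc2, a receptor that takes up collagen (0.10 each). For Fmod they were Aebp1, Prss23 and Crispld2 (0.11, 0.12 and 0.12), and for Prelp Atg10, Arhgef25 and Tfeb (0.035, 0.062 and 0.064). For Podn they were Fam222a, Rac3 and Mapk4 (0.11, 0.12 and 0.13). No gene appeared beside more than 1 member, and the members farthest from each other were Aspn and Podn, at 1.298. The likeness is a description of these 6 samples, which include the group difference.

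**Figure D4:**
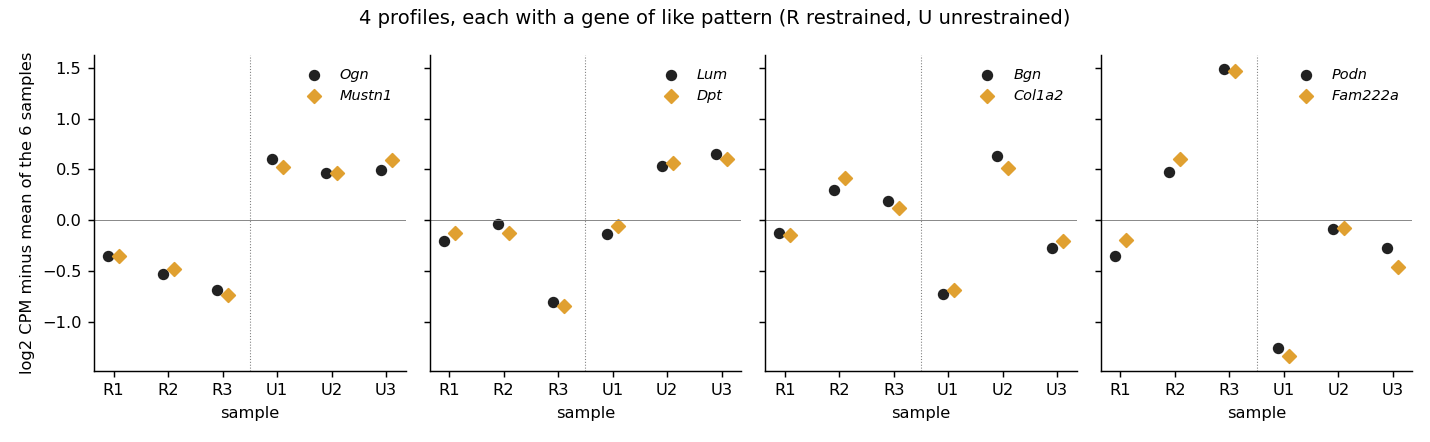
Log2 CPM minus the mean of the 6 samples (vertical axis) for Ogn, Lum, Bgn and Podn (circles), each with 1 of its 3 nearest genes (diamonds), by sample; R1 to R3 are the restrained and U1 to U3 the unrestrained replicates, and the dotted line divides the groups. Ogn separates the groups, Lum is lowest in R3, Bgn is lowest in U1 and highest in U2, and Podn is highest in R3 and lowest in U1.

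Smooth muscle markers were lower in the same samples as Ogn and Aspn, and so were markers of enteric neurons and glia, given below. All 14 smooth muscle markers had a log2 fold change below 0, with a median of -1.05, and -1.18 to -0.90 with a sample left out (0 past the edgeR threshold, 14 at an unadjusted p under 0.05), and 13 of the 14 did not overlap between groups. Over all genes tested 8.82% were lower at an unadjusted p under 0.05 and 11.2% lay lower without overlap. Their summed level was 4144, 4776 and 2930 CPM in restrained replicates and 8699, 6504 and 9010 CPM in unrestrained replicates, and none was at 0 in any sample. The 15 fibroblast markers had a median of 0.11, which ranged from -0.22 without unrestrained replicate 1 to 0.26 without unrestrained replicate 2 and was -0.018 with a filter at 1 CPM, and overlapping sums of 1339, 1691 and 1342 CPM in restrained and 1162, 1804 and 1477 CPM in unrestrained samples. The part of either cell type in the fold changes of the members was not tested.

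Each member was also expressed per 1000 CPM of either marker sum, a scale chosen after its values were seen. The smooth muscle sum was itself lower in restrained samples, so dividing by it raises every log2 difference. A gene with a log2 fold change near the median of these markers (-1.05) shows little difference on that scale by arithmetic, and the source of its RNA was not tested. Per 1000 CPM of smooth muscle markers Ogn was at 8.88, 6.82 and 9.95 CPM in restrained replicates and 8.19, 9.93 and 7.33 CPM in unrestrained replicates, and the groups overlapped (difference of mean log2 0.0044). Aspn (3.94 ± 0.546 in restrained and 3.83 ± 1.10 in unrestrained samples) and Optc (1.54 ± 0.0495 and 1.47 ± 0.133) overlapped on that scale too, as did Ecm2, Lum, Fmod, Bgn and Prelp. Dcn (42.3 ± 6.84 and 26.03 ± 10.9) and Podn (6.99 ± 6.09 and 1.38 ± 0.708) stood higher in all restrained samples. The collagen genes Col3a1 and Col1a1 made up a large part of the fibroblast sum, so it is no plain measure of fibroblast number. Col3a1 alone was at 543, 794 and 618 CPM in restrained replicates and 368, 768 and 530 CPM in unrestrained replicates. Per 1000 CPM of fibroblast markers Ogn was at 22.8 ± 4.21 CPM in restrained and 47.3 ± 12.96 CPM in unrestrained samples, without overlap. Aspn, Lum, Prelp, Optc and Ecm2 also lay lower without overlap. The share of all genes without overlap is not given here for this scale or the smooth muscle scale, so these tallies support nothing further. On the fibroblast scale Podn was higher without overlap (17.0 ± 11.8 and 7.001 ± 1.55), and Dcn, Bgn and Fmod overlapped (SD, n = 3 each throughout). For Podn restrained replicate 1 (8.53) and unrestrained replicate 3 (8.15) all but met, and restrained replicate 3 stood at 30.5.

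**Figure D5:**
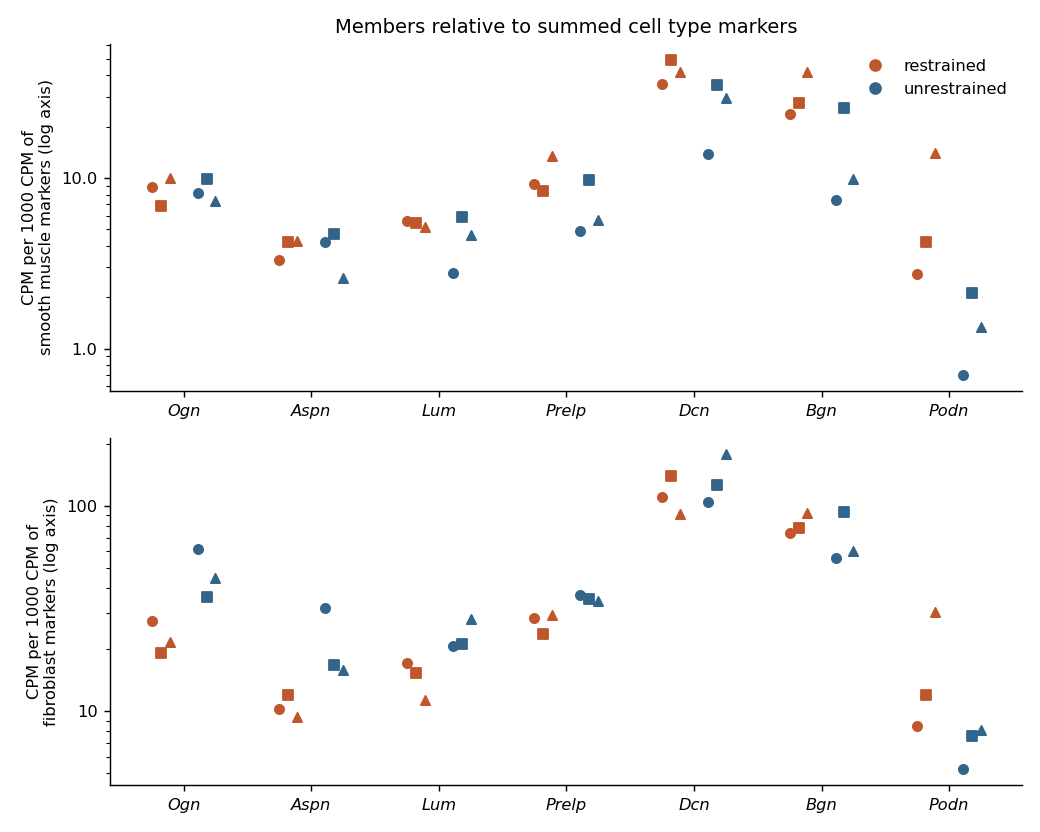
CPM of 7 members per 1000 CPM of the summed smooth muscle markers (upper panel) and fibroblast markers (lower panel), on log axes; circles, squares and triangles are replicates 1, 2 and 3 of each group. Ogn and Aspn overlap between groups in the upper panel and lie lower in all restrained samples in the lower panel, and Podn lies higher in all restrained samples in both.

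Other cells of the wall were looked at in the same way. Markers of enteric neurons and glia had a median log2 fold change of -1.33 with 10 of 12 below 0. All 10 were at an unadjusted p under 0.05 in edgeR, and 9 lay lower without overlap. Their sums were 66.6, 65.3 and 82.6 CPM in restrained replicates and 169, 129 and 92.1 CPM in unrestrained replicates. The members were not expressed per this sum. Pericyte markers had -0.33, which was -0.068 without unrestrained replicate 3. Endothelial markers had 0.19, from -0.052 without unrestrained replicate 1 to 0.53 without unrestrained replicate 2. Epithelial markers had -0.17, which turned to 0.023 without unrestrained replicate 1. Of the cartilage and bone markers only 4 of 10 passed the filter, with 3 above 0 and 1 below, and their median of 0.60 was 0.031 when all genes with a count were kept. The sums of adipocyte markers (36.5 to 57.6 CPM in restrained and 34.6 to 69.3 CPM in unrestrained samples) overlapped. Skeletal muscle markers reached 57.8 CPM in unrestrained replicate 3, against 12.6 to 19.8 CPM in the other samples. The mesothelial sum is almost wholly Krt19, which the epithelium also expresses. Of the 8 mesothelial markers 5 were tested, 2 above 0 and 3 below, with 1 lower without overlap and a median of -0.13, which ranged from -0.58 to 0.11 with a sample left out. The part of these cells in the members' values was not tested.

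The genes that build, bind and cut these proteoglycans were followed in 10 lists with 129 tested genes. In edgeR 0 of them were past the threshold. The unadjusted p was under 0.05 for 10 lower and 6 higher genes, 7.75% and 4.65% of the 129, against 8.82% and 7.82% of all genes tested. DESeq2 called 5 of them: Optc, Tgfb2 and Adamts8 lower, and Mmp8 and Mmp9 higher.

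Fibrillar collagens, the main ligands of the family, had no common direction. Of 10 tested, 6 had a log2 fold change above 0, with a median of 0.16 that ranged from -0.060 without restrained replicate 2 to 0.37 without unrestrained replicate 2. Col1a1 was at 199 ± 49.6 CPM in restrained and 133 ± 63.6 CPM in unrestrained samples (0.58 ± 0.34, edgeR adjusted p = 0.408). Col27a1 was at 18.3 ± 2.75 and 27.03 ± 6.95 CPM (-0.57 ± 0.21, edgeR adjusted p = 0.275) and Col11a2 at 5.61 ± 1.72 and 7.19 ± 2.26 CPM. Among 18 fibril-associated and microfibril genes the median was -0.037, and -0.14 to 0.24 with a sample left out. Dpt was at 36.4 ± 9.50 CPM in restrained and 60.5 ± 14.3 CPM in unrestrained samples (-0.73 ± 0.25, edgeR adjusted p = 0.263), Tnxb, which spaces collagen fibrils, at 19.8 ± 6.57 and 35.5 ± 11.2 CPM, and Fbln1 at 47.6 ± 4.93 and 35.2 ± 13.9 CPM.

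Among 18 genes of collagen cross-linking and maturation the median was 0.31 (0.045 without restrained replicate 2), and 0 were at an unadjusted p under 0.05. Plod2, a lysyl hydroxylase, was at 15.4 ± 5.14 CPM in restrained and 23.2 ± 3.81 CPM in unrestrained samples, and Lox, the lysyl oxidase, at 24.0 ± 9.66 and 13.7 ± 5.26 CPM. Adamts2, which trims procollagen, was at 12.7 ± 3.00 and 9.79 ± 1.76 CPM. The other matrix proteoglycans had a median of -0.22 over 12 genes, which turned to 0.14 with a filter at 1 CPM and to 0.022 without unrestrained replicate 2. Spock3 was at 1.69 ± 0.199 CPM in restrained and 3.48 ± 0.777 CPM in unrestrained samples (-1.03 ± 0.31, edgeR adjusted p = 0.239), Hspg2, perlecan, at 102 ± 7.501 and 121 ± 17.2 CPM, and Spock2 at 571 ± 346 and 147 ± 128 CPM.

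The enzymes that put sugar chains on the core proteins were followed in 3 lists, in which edgeR gave 0 genes an unadjusted p under 0.05. The 7 genes of the linker region had a median log2 fold change of -0.00043, with Xylt1, which adds the first xylose, at 0.754 ± 0.210 CPM in restrained and 2.098 ± 1.67 CPM in unrestrained samples. Pxylp1 was at 52.9 ± 14.5 and 60.4 ± 3.53 CPM and B3galt6 at 10.4 ± 0.195 and 9.28 ± 1.05 CPM. The 15 genes of chondroitin and dermatan sulfate synthesis had a median of -0.0207 (-0.27 to 0.19 with a sample left out), and Ust, Chst3 and Chst12, which add sulfate, had -0.80 ± 0.40, -1.81 ± 0.96 and -0.36 ± 0.22. The 7 genes of keratan sulfate synthesis all had a log2 fold change below 0, with a median of -0.11 that reached -0.30 without restrained replicate 3. B4galt4 was at 35.05 ± 9.67 CPM in restrained and 52.8 ± 21.4 CPM in unrestrained samples, Chst2 at 4.93 ± 1.15 and 7.38 ± 3.37 CPM and B3gnt7, which extends the chain, at 339 ± 158 and 534 ± 209 CPM.

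Receptors and growth factors bound by the family were balanced, with 11 above 0 and 11 below among 22 tested genes and a median of -0.0155 (-0.11 to 0.053 with a sample left out). Tgfb2 was at 5.55 ± 1.59 CPM in restrained and 12.8 ± 4.91 CPM in unrestrained samples (-1.21 ± 0.35, edgeR adjusted p = 0.232), and its groups did not overlap. Bmp2 was at 49.1 ± 15.7 and 88.1 ± 27.7 CPM and Itga2, a subunit of a collagen receptor, at 15.4 ± 6.19 and 8.32 ± 1.69 CPM. Tlr2 and Tlr4, receptors of biglycan, had log2 fold changes of 0.029 ± 0.27 and -0.32 ± 0.18. Proteases that cut these proteoglycans had a median of 0.90 over 13 genes, from 0.55 without unrestrained replicate 1 to 1.32 without unrestrained replicate 2. Of these 10 were above 0, and the unadjusted p was under 0.05 for 4 higher and 2 lower ones. Only 1 lay higher without overlap and 2 lay lower, where 12.5% and 11.2% of all genes tested did. Adamts8 was at 2.30 ± 0.940 CPM in restrained and 6.92 ± 0.665 CPM in unrestrained samples (-1.59 ± 0.36, edgeR adjusted p = 0.191). Mmp14, a membrane-bound collagenase, was at 227 ± 63.3 and 116 ± 52.6 CPM (0.96 ± 0.37, edgeR adjusted p = 0.280). Mmp13, another collagenase, was at 16.3, 199 and 47.7 CPM in restrained replicates and 4.94, 21.1 and 6.66 CPM in unrestrained replicates, where the groups overlapped through restrained replicate 1.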

How the data were processed

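Total RNA of 6 colon samples was sequenced. The authors deposited whole-number read counts per gene symbol and, beside them, FPKM values that they computed, per the file headers. Per the submitters' processing notes the build was GRCm39 and the tools included featureCounts 1.6.2 and HISAT2 2.1.0, with fastp 0.19.3 and StringTie 1.3.4d also listed, all with no role. Strand setting and gene annotation: not given in the sources used here. All tests used the counts. After filterByExpr and TMM scaling, edgeR 4.0.16 (R 4.3.3) fitted a robust quasi-likelihood model with group as the only term, with Benjamini-Hochberg adjustment over 15890 genes. Log2 fold changes are restrained minus unrestrained, with SE as their size divided by the square root of F. CPM values are TMM-scaled, except the group values of Omd and the depth limit below, which use raw total counts. Alternatives used other scalings and filters, DESeq2 1.42.0, limma-voom (limma 3.58.1) and each sample left out. No 2 samples agreed within sampling noise (chi-square per gene 39.3 or more, where sampling alone gives about 1). The depth allows a share of up to 0.0909 to 0.1105 CPM for a count of 0 (3 counts, counting error only).

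The members and the gene lists were chosen with earlier results of these data known. Named were all members, the other family genes, up to 3 genes of smallest p and at least 1 CPM per list, and the 3 genes nearest to each member, leaving out predicted and sex-linked genes. Tlr2, Tlr4, Mmp8 and Mmp9 were named after their values were seen. Reference coordinates are of GRCm38, not the authors' build.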

Additional observations from a re-analysis of the deposited data

How the results depend on the processing

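In limma-voom and in each edgeR alternative (scaling, filter, non-robust fit, left-out sample) 0 genes passed the threshold, against 798 in DESeq2, which called 2 members, 5 partner genes and, at an unadjusted p under 0.05, 12 partner genes as higher. Leaving out each sample in turn gave 762 to 1554 genes lower and 667 to 1436 higher at an unadjusted p under 0.05, and 8 to 16 partner genes lower and 1 to 18 higher. Without restrained replicate 2 there were 762 lower, 667 higher and 1 higher partner gene, and without restrained replicate 3 there were 845, 757 and 3. Without unrestrained replicate 1 there were 16 lower and 3 higher partner genes, and without unrestrained replicate 2 there were 18 higher. It gave 5 to 7 members below 0 and 1 to 3 above, and 3 to 4 members lower and 0 to 1 higher without overlap. Dividing by the smooth muscle sum, itself lower in restrained samples, raises every log2 difference. Per summed smooth muscle markers, a scale added after seeing the data, the sign of the log2 difference turned for Ogn (0.0044), Aspn (0.075), Lum (0.35), Prelp (0.65), Dcn (0.79) and Fmod (0.93). Among left-out samples it turned for Fmod (0.12, 0.0021 and 0.0103, lowest -0.37) and Bgn (-0.12, highest 0.62). The other scalings moved the median of all genes by at most 0.046. No paired analysis was possible because the labels carry no replicate numbers shared by the groups. Scaled CPM per length was not run because the table gives no lengths. Omd, at 1 to 12 counts, is limited by depth.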

Other observations

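Kera, keratocan of the cornea, had 19 counts in unrestrained replicate 3 and 0 counts in each of the other 5 samples, so that the restrained group holds 0 counts (exact 95% Poisson interval up to 3.69 counts). Unrestrained replicate 3 is also the sample with 3125 CPM of squamous epithelial markers and with the highest Omd count, 12. Epyc, epiphycan of cartilage, had 35 counts in restrained replicate 2, 2 in restrained replicate 1 and 0 in restrained replicate 3, against 0, 0 and 4 counts in the unrestrained replicates.

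Pi16, a marker of fibroblasts around vessels, was at 2.88 ± 2.48 CPM in restrained and 0.386 ± 0.273 CPM in unrestrained samples (SD, n = 3 each) without overlap, although the summed fibroblast markers overlapped. Lsp1, of the same list, was at 44.2 ± 2.18 CPM and 72.2 ± 18.5 CPM (edgeR adjusted p = 0.239 for Pi16 and 0.195 for Lsp1). Both were chosen after their values were seen, and which cells expressed them was not tested. Of the 15 fibroblast markers 8 had a log2 fold change above 0 and 7 below.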
